A study of Rattus norvegicus with 300 samples.

Results

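Pomc, Agrp, Npvf, Cartpt, Gal, Pcsk1n and Mc4r are 7 genes of neuropeptide signalling in the hypothalamus, out of 17337 gene symbols counted. They were chosen on measured values of the same libraries: Pomc stood apart in the mPOA libraries of the FT group, and the other genes were taken as its companions in feeding circuits or in that same contrast. The FT values of mPOA set beside Control are therefore given as a description without a test. The question asked of the other values was whether the 7 genes moved together.

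Pomc encodes proopiomelanocortin, a precursor that is cut into alpha-MSH, ACTH and beta-endorphin. Neurons of the arcuate nucleus that make Pomc reduce feeding, partly through alpha-MSH acting on the melanocortin receptor encoded by Mc4r. Neighbouring arcuate neurons make Agrp, whose product blocks that receptor and raises feeding. Cartpt encodes the CART peptides, which many Pomc neurons of rodents also make. Npvf encodes the precursor of the RFamide-related peptides, made mainly by dorsomedial hypothalamic neurons that act on the reproductive axis. Gal encodes galanin, a peptide of preoptic neurons and of noradrenaline neurons of the locus coeruleus. Pcsk1n encodes proSAAS, an inhibitor of the prohormone convertase PC1/3 that cuts such precursors.

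RNA was counted in 300 libraries made from punched brain tissue of male Long Evans rats, 60 days old, treated through the drinking water for 3 weeks. The drug groups were FT, Bupropion at 15 mg/kg/day and Desipramine at 7.5 mg/kg/day, with water as Control. Probiotics went in a maltodextrin carrier, and Maltodextrin at 10 g/L was their own reference. The labels do not spell FT out. Of the drugs named in the protocol, fluoxetine, at 13 mg/kg/day, matches none of the other group names. Fluoxetine acts on serotonin uptake, desipramine on noradrenaline uptake, and bupropion on dopamine and noradrenaline uptake. The dose of probiotics is not printed, because the labels give it in forms that disagree. Each treatment had 5 libraries in each of 10 regions, which the labels abbreviate as mPOA, Raphe, NACShell, LConly, ILC, PLC, CGC, BLA, venDG and dorDG. The abbreviation mPOA is commonly used for the medial preoptic area, which lies in front of the arcuate nucleus at the base of the brain. Punches were pooled, and the labels do not say that the replicates were separate rats, so each p-value rests on the spread between libraries, which may be technical.

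Total counts ran from 198260 to 18310687 per library, and from 3807947 to 11773751 in mPOA. The 4 libraries under 1000000 counts were all of the Desipramine group and none was from mPOA. Among the FT libraries, those labelled ILC and those labelled LConly held markers of each other's region. Dbh, the enzyme that makes noradrenaline, averaged 255 CPM (counts per 1000000 counts of the library) in FT libraries labelled ILC and 0.31 CPM in Control ILC. Dbh averaged 0.65 CPM in FT libraries labelled LConly, against 140 CPM in Control LConly, while Tbr1, a factor of cortical excitatory neurons, averaged 18.1 CPM in FT libraries labelled LConly and 0.0482 CPM in Control LConly. Results that rest on these labels are given with and without both regions.

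The stretches of 250 bases before the gene start are shown for the 4 genes that were high together in FT mPOA and for Gal, whose level moved with that of Cartpt. They come from RefSeq on build GRCr8, where all 7 genes were matched, and each is written 5′ to 3′ on the strand of its gene. Pomc lies on the plus strand at chr6:32659103-32659352. The other stretches lie on the minus strand, Agrp at chr19:50359498-50359747, Npvf at chr4:81047046-81047295, Cartpt at chr2:32991236-32991485 and Gal at chr1:210084573-210084822. Capitals mark 3 motifs, which were searched on both strands: a TATA box with the letters TATAAA, a homeodomain core with the letters TAATTA, and the core TGACG of a cAMP response element.
Pomc: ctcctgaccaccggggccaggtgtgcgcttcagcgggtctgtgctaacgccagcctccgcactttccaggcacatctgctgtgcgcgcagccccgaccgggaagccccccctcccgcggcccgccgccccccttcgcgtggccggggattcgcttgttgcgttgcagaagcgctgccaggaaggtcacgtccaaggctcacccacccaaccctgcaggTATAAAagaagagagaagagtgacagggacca
Agrp: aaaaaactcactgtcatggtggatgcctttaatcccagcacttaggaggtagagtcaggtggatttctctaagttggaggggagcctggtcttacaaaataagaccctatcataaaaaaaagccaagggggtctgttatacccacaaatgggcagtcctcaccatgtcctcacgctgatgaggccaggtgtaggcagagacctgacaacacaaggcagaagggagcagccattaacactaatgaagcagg
Npvf: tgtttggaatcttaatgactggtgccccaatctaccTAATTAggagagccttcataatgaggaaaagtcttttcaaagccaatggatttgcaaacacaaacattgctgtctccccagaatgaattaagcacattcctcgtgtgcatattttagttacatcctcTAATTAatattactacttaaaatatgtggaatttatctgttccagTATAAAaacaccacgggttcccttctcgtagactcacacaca
Cartpt: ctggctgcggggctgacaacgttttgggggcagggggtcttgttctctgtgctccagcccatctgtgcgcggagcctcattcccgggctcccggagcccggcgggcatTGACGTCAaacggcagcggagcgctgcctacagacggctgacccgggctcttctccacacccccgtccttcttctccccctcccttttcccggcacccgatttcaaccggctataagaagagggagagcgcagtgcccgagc
Gal: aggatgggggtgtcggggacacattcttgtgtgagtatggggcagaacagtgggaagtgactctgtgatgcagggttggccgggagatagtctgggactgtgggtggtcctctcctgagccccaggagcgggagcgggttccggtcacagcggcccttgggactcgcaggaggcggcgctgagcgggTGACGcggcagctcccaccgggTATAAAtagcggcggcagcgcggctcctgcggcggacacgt
TATAAA was found in Pomc, Npvf and Gal, starting 32, 42 and 41 bases before the gene start, and 12.9% of 33469 promoters of the same length hold it. TAATTA was found at 2 places in Npvf, and 4.86% of promoters hold it. TGACG was found in Gal and at 2 overlapping places in Cartpt, where both strands read as TGACGTCA; 18.2% of promoters hold TGACG. Agrp had none of these 3 motifs in its stretch. Another motif searched, the E box with the letters CANNTG, is not in capitals. It was found at 2 places in Pomc, 3 in Agrp and 1 in Cartpt, and in neither Npvf nor Gal, and 65.5% of promoters hold it. These matches describe the letters of the window only.

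In mPOA, 4 of the 5 peptide precursors stood far higher in FT than in Control. Pomc had 176, 424, 404, 437 and 433 CPM in FT replicates 1 to 5, against 2.39, 3.80, 2.08, 3.82 and 4.63 CPM in Control. Every FT library was above every Control library, and FT replicate 1 was well below the other FT libraries. The fitted log2 difference for Pomc was 6.67 ± 0.22 (SE, n = 5 each), the third by size among 12328 genes, and 6.85 without FT replicate 1.

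Agrp had 11.3, 22.2, 19.7, 21.4 and 22.3 CPM in the FT libraries, and 0.984, 0.308, 0.906, 0.868 and 0.472 CPM in the Control libraries. The groups did not overlap, and FT replicate 1 was again the lowest, at a fitted log2 difference of 4.67 ± 0.24. Npvf had 175, 113, 113, 113 and 119 CPM in FT, and 0 to 0.347 CPM in Control. Npvf rested on 4143 reads in FT and 7 reads in Control, and FT replicate 1 was here the highest of its group. Its fitted difference of 9.54 on the log2 scale was the largest among the 12328 genes, and its exact size depends on those 7 reads.

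Cartpt had 720, 660, 609, 779 and 662 CPM in FT, against 53.2, 50.3, 42.5, 51.6 and 54.2 CPM in Control. The groups lay far apart, the fitted log2 difference was 3.63 ± 0.11, and FT replicate 1 did not stand out.

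The other 3 genes did not separate the groups. Gal averaged 76.7 ± 12 CPM in FT and 62.2 ± 8.8 CPM in Control (SD, n = 5 each), and the libraries overlapped. Pcsk1n, the processing inhibitor, had 2.10, 9.40, 7.68, 7.79 and 10.0 CPM in FT and 1.41 to 2.88 CPM in Control, so that FT replicate 1 fell within the Control range while the other FT libraries were above it. Mc4r, the receptor, averaged 9.39 ± 1.5 CPM in FT and 11.7 ± 0.88 CPM in Control, also with overlap. The fitted log2 differences were 0.15 for Gal, 1.76 for Pcsk1n and -0.42 for Mc4r.

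In that contrast, all 5 FT libraries were above all 5 Control libraries for 21.4% of the 12017 genes of at least 1 CPM, and below them for 8.5%. The 4 of 7 genes above and 0 of 7 below stand beside these shares with nothing read from them, since the contrast chose the genes. Agrp and Npvf passed the filter on low counts in mPOA only through FT.

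**Figure D1:**
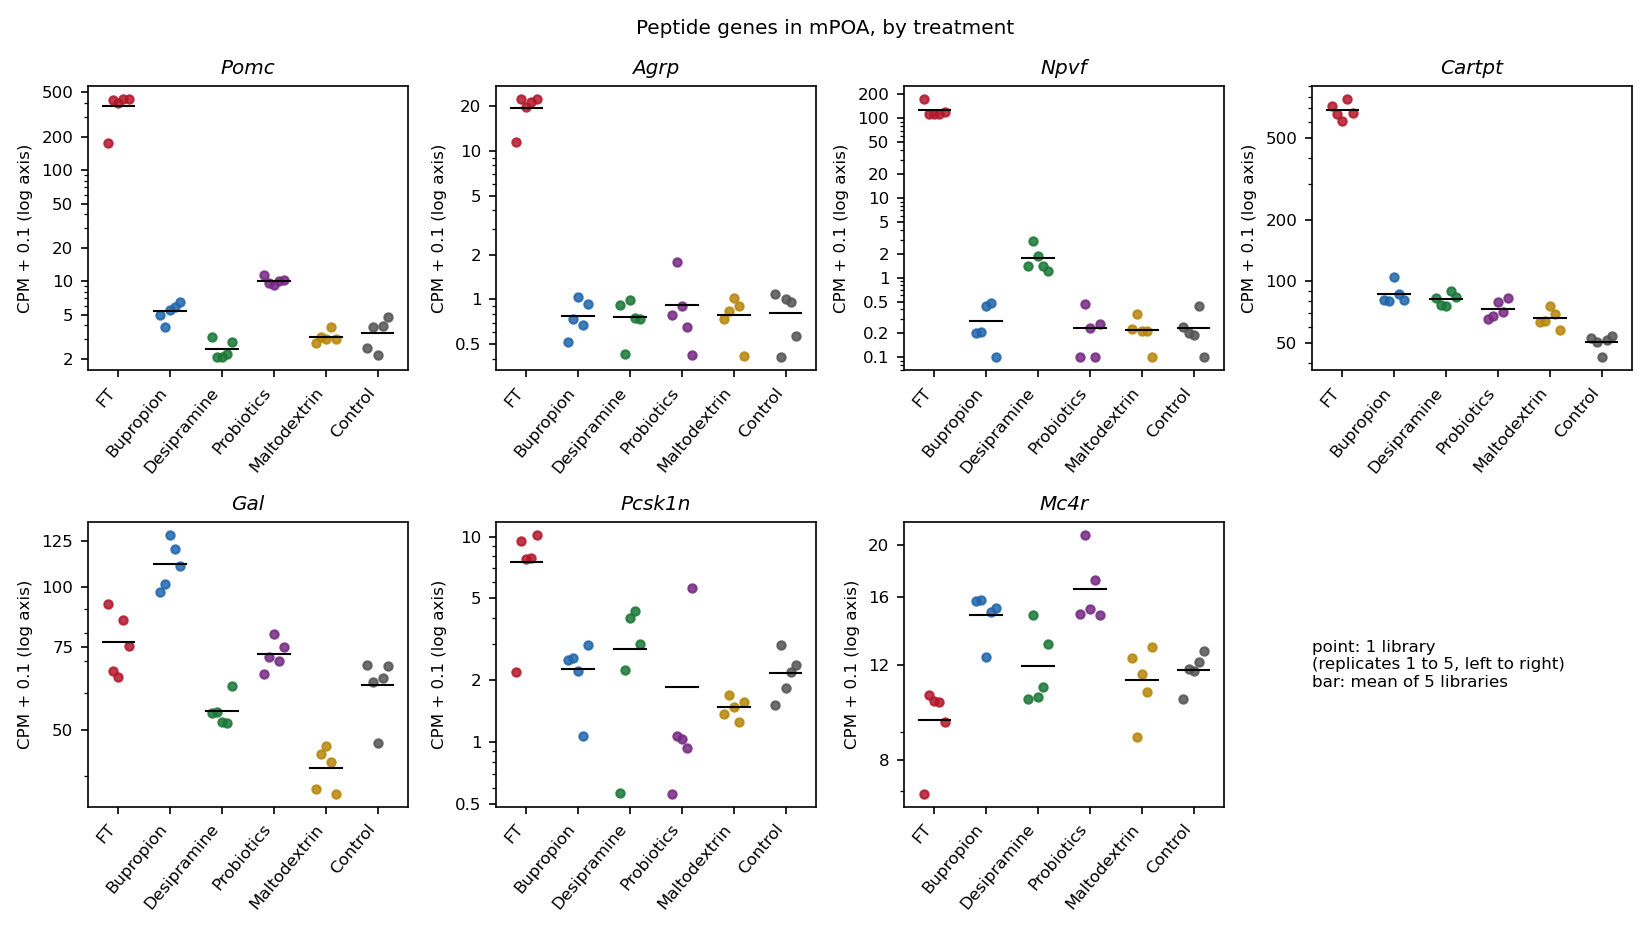
Level of the 7 genes in the 30 mPOA libraries, as CPM plus 0.1 on log axes, with treatments along the horizontal axis. Each point is 1 library, replicates 1 to 5 run left to right within a treatment, and the bar is the mean of 5. Pomc, Agrp, Npvf and Cartpt stand high in FT, Pomc is next highest in Probiotics, and Npvf is next highest in Desipramine.

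Marker genes of hypothalamic sites near mPOA were also higher in the FT libraries. Of 12 further arcuate genes of at least 1 CPM, 8 had all FT libraries above all Control libraries and 0 below. Over all genes of that level, 21.4% were above and 8.5% below. The 17 further arcuate genes in the table summed to 589 to 869 CPM in FT and 283 to 352 CPM in Control. Ghrh, the growth hormone releasing hormone, averaged 42.7 CPM in FT and 2.63 CPM in Control. Npy, the defining partner of Agrp in arcuate neurons, averaged 1.08 CPM in FT, 0.750 CPM in Control and 0.228 to 0.620 CPM in the other treatments. It was near the floor in every group, with FT and Control overlapping, and so tells little about FT. Of 8 ventromedial hypothalamic genes 7 were above Control, and their sums were 232 to 314 CPM in FT and 119 to 142 CPM in Control. Nr5a1, the transcription factor SF-1 of that nucleus, averaged 6.35 CPM in FT and 0.0536 CPM in Control.

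The 12 pituitary genes summed to 151 to 186 CPM in FT and 3.68 to 4.53 CPM in Control. In FT nearly all of that sum was Cga, the shared subunit of glycoprotein hormones, at 156 CPM in FT and 0.371 CPM in Control. Gh1 and Prl, the defining hormones of the anterior pituitary, reached at most 0.263 and 0.279 CPM in FT. Hcrt, the orexin precursor of the lateral hypothalamus, averaged 105 CPM in FT and 7.49 CPM in Control. The list of other hypothalamic peptide genes was mixed in FT. Of its 13 genes of at least 1 CPM, Npvf left out, 3 had all FT libraries above all Control libraries and 4 below. Its 16 genes in the table, Npvf left out, summed to 1728 to 3923 CPM in FT and 1894 to 2270 CPM in Control. Pmch was at 0 in every treatment, so that its values give no information on FT. Of 11 further preoptic genes, 2 had all FT libraries above Control and 3 below, and the preoptic sum without Gal was 311 to 402 CPM in FT and 434 to 522 CPM in Control. Meningeal genes were below Control for 8 of 10, and myelin genes for 7 of 8, where 8.5% of all genes were below and 21.4% above. The part of these differences in the levels of Pomc, Agrp, Npvf and Cartpt was not tested. In bulk tissue, more cells of a type and more RNA per cell cannot be told apart.

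FT replicate 1 also stood apart for other genes. Oxt, the oxytocin precursor, was at 429 CPM there and at 1709 to 2039 CPM in the other FT libraries of mPOA. Ghrh was at 19.7 CPM there and at 45.6 to 51.8 CPM in the others. This library was also the shallowest of mPOA, at 3807947 counts, where the other FT libraries of mPOA had 6491901 to 8469269. Its difference from those libraries, as a chi-square per degree of freedom, was 26.1 to 37.6, against 2.2 to 7.1 among them.

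Across the other treatments in mPOA, each of 4 comparisons changed 2 or 3 of the 7 genes, and the genes that changed were not the same set. The counts come from the quasi-likelihood test of edgeR, with p-values adjusted over 12328 genes after Benjamini and Hochberg and called at an adjusted p under 0.05. In Probiotics against Maltodextrin 3 of 7 genes were called, where 35% of all genes were. In Bupropion against Control 3 of 7 were called, where 39.3% were, and in Desipramine against Control 3 of 7, where 64.6% were. Agrp and Npvf entered these fits only through FT. Npvf was among the 3 called in Desipramine, and neither gene was among those called in the other comparisons. In Maltodextrin against Control 2 of 7 were called, where 37.9% were. These shares of the 7 genes, with Agrp and Npvf counted among them, lie near or below the shares over all genes.

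Of the 4 genes that stood high in FT, Pomc also rose in Probiotics. It had 11.3, 9.46, 9.10, 9.88 and 10.1 CPM in Probiotics, against 2.68, 3.07, 2.89, 3.80 and 2.93 CPM in Maltodextrin. All Probiotics libraries were above all Maltodextrin libraries, and the spread within each group was small. The log2 fold change was 1.60 ± 0.29 (n = 5 each, edgeR adjusted p = 6.4e-05), rank 35 by size, and the call held under each alternative run.

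Agrp did not follow Pomc in Probiotics: it averaged 0.814 ± 0.52 CPM in Probiotics and 0.684 ± 0.23 CPM in Maltodextrin. Npvf averaged 0.132 CPM in Probiotics and 0.121 CPM in Maltodextrin, on 5 reads in each group, so that only a large difference could have been shown. Cartpt averaged 73.2 ± 7.4 CPM in Probiotics and 66.0 ± 6.6 CPM in Maltodextrin, at a log2 fold change of 0.05 that did not pass the test (edgeR adjusted p = 0.734). Of the 2 pituitary genes that passed the filter without FT, Tbx19 was higher in Probiotics than in Maltodextrin, by 0.70. Cga entered the fit only through FT, and averaged 0.586 CPM in Probiotics and 0.232 CPM in Maltodextrin. Meningeal genes were lower for 9 of 10, where 2132 of 12328 genes were called lower. The part of these pituitary and meningeal genes in the Pomc result was not tested, nor was that of the NACShell markers given below beside Gal.

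In Bupropion, Pomc had 4.83, 3.74, 5.44, 5.79 and 6.44 CPM, against 2.39, 3.80, 2.08, 3.82 and 4.63 CPM in Control. The libraries overlapped, and the log2 fold change of 0.69 ± 0.30 did not pass (edgeR adjusted p = 0.0645), although it passed under 9 of the alternatives run, among them without Bupropion replicate 2 and without Control replicate 5. In Desipramine, Pomc averaged 2.37 ± 0.49 CPM, against 3.34 ± 1.1 CPM in Control, at -0.72 ± 0.38 (edgeR adjusted p = 0.102), and it passed under 4 of the alternatives run, at -0.73 with the groups compared alone, -0.73 in DESeq2, -0.76 without the FT libraries and without a filter, and -0.89 without Control replicate 3. Maltodextrin, at 3.07 CPM, and Control, at 3.34 CPM, overlapped for Pomc.

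Npvf was called in Desipramine alone among the 4 tested comparisons. It had 1.29, 2.79, 1.79, 1.31 and 1.13 CPM in Desipramine, and 0.141, 0.103, 0.0906, 0.347 and 0 CPM in Control. Every Desipramine library was above every Control library, on 53 reads in Desipramine and 7 reads in Control. The log2 fold change was 3.19 ± 0.52 (edgeR adjusted p = 2.34e-06), and it ran from 2.87 to 3.92 over the alternatives run. Npvf entered that fit only through the FT libraries, and without the FT libraries and without a filter the change was 3.16 (edgeR adjusted p = 3.59e-06). Pomc and Agrp were not higher beside it, with Agrp at 0.668 ± 0.22 CPM in Desipramine and 0.708 ± 0.30 CPM in Control. Meningeal genes were lower for 9 of 10 in Desipramine, as in Bupropion, where 4002 and 2289 of 12328 genes were called lower. Tbx19, a pituitary factor, was higher in Desipramine by 0.67. The 8 ventromedial genes summed to 157 to 170 CPM in Desipramine, 148 to 166 CPM in Bupropion and 119 to 142 CPM in Control. Among them, Fezf1 had 4.98 to 7.87 CPM in Desipramine and 1.97 to 3.21 CPM in Control. Nptx2 was lower, at 3.77 to 6.27 CPM in Desipramine and 15.3 to 19.5 CPM in Control. Myelin genes summed to 25962 to 32340 CPM in Desipramine and 50154 to 61823 CPM in Control. The part of these meningeal, pituitary, ventromedial and myelin genes in the Npvf result was not tested.

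Cartpt rose in Bupropion and in Desipramine. It had 80.8, 80.3, 105, 86.3 and 81.2 CPM in Bupropion, and 83.3, 76.8, 76.0, 89.2 and 84.2 CPM in Desipramine, against 53.2, 50.3, 42.5, 51.6 and 54.2 CPM in Control. Both drug groups lay wholly above Control. The log2 fold change was 0.83 ± 0.10 in Bupropion (edgeR adjusted p = 1.82e-07) and 0.46 ± 0.11 in Desipramine (edgeR adjusted p = 0.00031), and the Desipramine value was 0.18 with Maltodextrin in place of Control, which did not pass. In Maltodextrin, Cartpt averaged 66.0 CPM, against 50.4 CPM in Control, at 0.28 ± 0.11 (edgeR adjusted p = 0.0327). That call was lost without Maltodextrin replicate 3 or 4, or Control replicate 3 or 4, at edgeR adjusted p-values of 0.0525 to 0.125.

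Gal passed the test in all 4 comparisons, in different directions. The Probiotics comparison and that of Maltodextrin against Control share the Maltodextrin libraries, so that their values are not independent, for Gal and for the other genes given below. Gal had 97.7, 102, 128, 120 and 110 CPM in Bupropion, against 68.5, 63.2, 46.9, 64.4 and 68.1 CPM in Control. The groups did not overlap, and the log2 fold change was 0.88 ± 0.11 (edgeR adjusted p = 1.37e-07). In Probiotics it had 65.5, 71.3, 79.6, 69.9 and 74.8 CPM, against 37.6, 44.4, 46.3, 42.8 and 36.7 CPM in Maltodextrin. Probiotics lay wholly above Maltodextrin, at 0.70 ± 0.12 (edgeR adjusted p = 1.44e-05).

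Maltodextrin itself lay wholly below Control for Gal, at -0.69 ± 0.12 (edgeR adjusted p = 2.51e-05). In mPOA, 6 marker genes of NACShell summed to 211 to 235 CPM in Maltodextrin. Their sums were 133 to 160 CPM in Control and 147 to 162 CPM in Probiotics. The means of Drd1 were 53.5 CPM in Maltodextrin, 23.2 CPM in Control and 22.6 CPM in Probiotics. Rxrg alone of them was lower in Maltodextrin, at 20.6 CPM, than in Control, at 27.8 CPM, and Probiotics, at 30.4 CPM. The part of these markers in the Maltodextrin and Probiotics results was not tested. For Gal, Desipramine averaged 54.9 ± 4.2 CPM and Control 62.2 ± 8.8 CPM, with overlap, at -0.42 ± 0.12 (edgeR adjusted p = 0.00193). Without TMM scaling the Desipramine change was -0.18 and did not pass (edgeR adjusted p = 0.119), and with Maltodextrin in place of Control it was 0.27, also without passing. The TMM scale lies 0.24 below that of library totals on the log2 scale for Desipramine against Control in mPOA, by 0.14 for FT and by 0.11 for Maltodextrin against Control.

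Mc4r rose in Probiotics and Bupropion. It had 14.8, 20.7, 15.1, 17.1 and 14.8 CPM in Probiotics, against 12.2, 8.72, 11.5, 10.6 and 12.9 CPM in Maltodextrin. All Probiotics libraries were above all Maltodextrin libraries, at a log2 fold change of 0.47 ± 0.12 (edgeR adjusted p = 0.00196). In Bupropion it had 15.6, 15.7, 12.3, 15.0 and 15.2 CPM, against 10.3, 11.7, 11.6, 12.1 and 12.7 CPM in Control. Bupropion replicate 3 lay within the Control range, and the change was 0.37 ± 0.11 (edgeR adjusted p = 0.00813).

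Pcsk1n did not pass in any of the 4 comparisons in mPOA, at 0.459 to 5.52 CPM in Probiotics and 1.15 to 1.60 CPM in Maltodextrin. Agrp did not pass either, and its group means outside FT lay between 0.668 and 0.814 CPM. Both genes rest on few reads, from 2 to 14 per library outside FT for Agrp and from 4 to 34 for Pcsk1n, so only large changes could be shown.

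**Figure D2:**
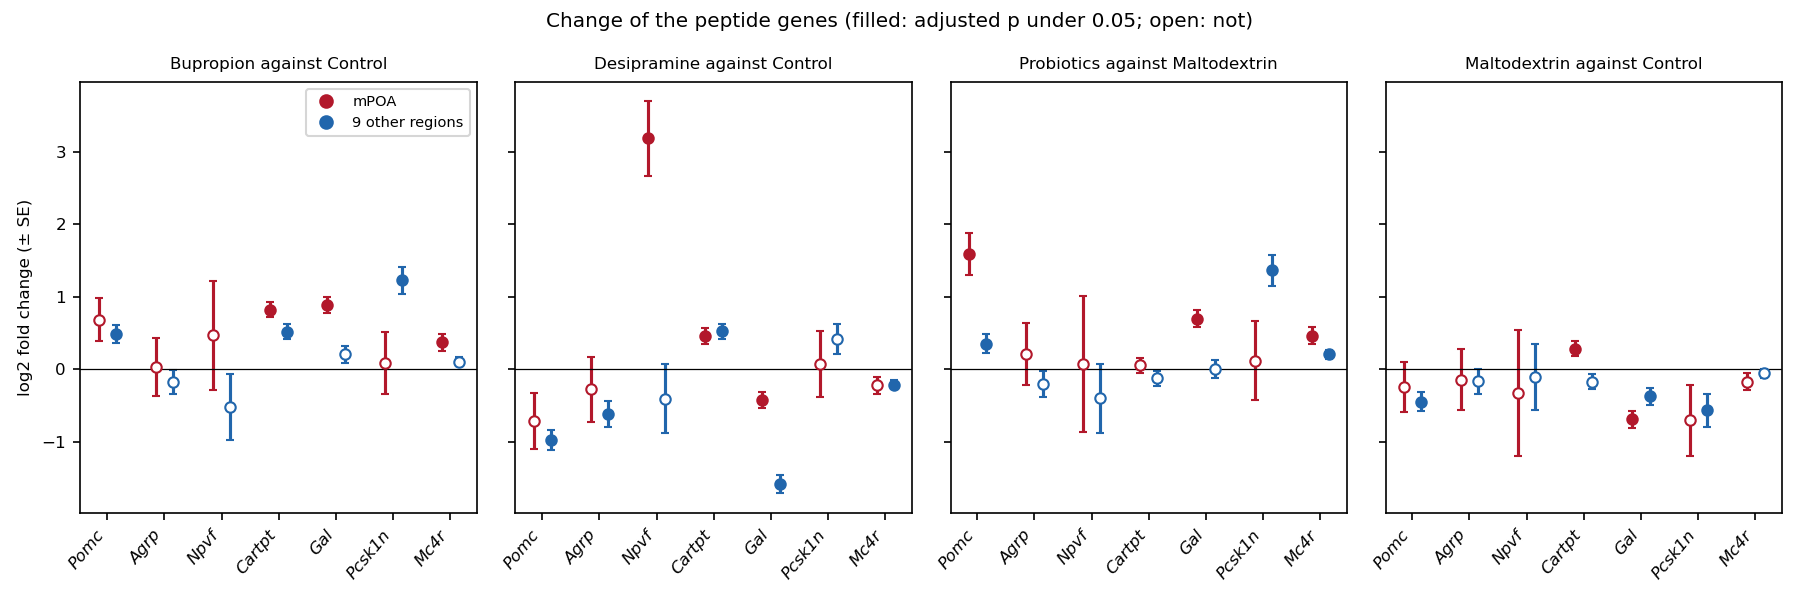
Fitted log2 fold change with its SE for the 7 genes in mPOA and over the 9 other regions, in the 4 comparisons tested in mPOA. Filled points passed at an adjusted p under 0.05 and open points did not. Npvf in Desipramine, at 3.19, and Pomc in Probiotics, at 1.60, are the highest points in mPOA, and Gal in mPOA lies above 0 in 2 panels and below 0 in the other two.

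Related hypothalamic genes were counted from lists, which were drawn up with earlier results of these libraries known. The share of all genes called in mPOA was 35% in Probiotics, 39.3% in Bupropion, 64.6% in Desipramine and 37.9% in Maltodextrin. Agrp, Tbx3 and Npvf are among the genes tested in these lists only because of their FT counts. Of 14 other hypothalamic peptide genes tested in mPOA, 9 rose and 0 fell in Bupropion, among them Nts, Gnrh1 and Avp, at log2 fold changes of 0.42, 0.46 and 1.30. The median of that list, Npvf included, was 0.42, against 0.0013 over all genes. In Probiotics 3 of them rose and 3 fell, with Oxt at 1.67 and Tac1 at -0.74. In Desipramine 3 rose and 6 fell, with Crh, a stress hormone precursor, at 0.59 and Penk at -0.45. In Maltodextrin 1 rose and 6 fell, with Tac1 at 0.66 and Oxt at -1.55.

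Of 15 arcuate genes tested, Agrp and Pomc included, 5 rose and 1 fell in Probiotics, with Sst, the somatostatin precursor, at 1.02 and Tac3, the neurokinin B precursor, at 0.62. In Bupropion 4 rose and 1 fell, with Tac3 at 0.99 and Lepr, the leptin receptor, at -0.91. In Desipramine 2 rose and 3 fell, and in Maltodextrin 3 rose and 3 fell. The medians were 0.43 in Probiotics, 0.28 in Bupropion, -0.17 in Desipramine and -0.21 in Maltodextrin, while the medians over all genes were within 0.021 of 0.

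Among 12 melanocortin and peptide receptor genes, Mc4r included, 4 rose and 1 fell in Probiotics, where 35% of all genes were called. Mc3r, the other melanocortin receptor of the brain, was at 1.32 in Probiotics and at -1.17 in Maltodextrin. Galr1, a receptor of galanin, was at 0.68 in Probiotics. Mrap2, an accessory protein of melanocortin receptors, fell by 0.58 in Desipramine and by 0.49 in Maltodextrin and rose by 0.27 in Bupropion. In Bupropion 3 of the 12 rose and 2 fell, in Desipramine 3 rose and 5 fell, and in Maltodextrin 2 rose and 3 fell.

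Of 18 genes of peptide processing, Pcsk1n included, 10 rose and 6 fell in Desipramine, 6 rose and 3 fell in Bupropion, 4 rose and 2 fell in Probiotics, and 3 rose and 2 fell in Maltodextrin. The 9 of 18 called in Bupropion stand near the share over all genes of 39.3%. Pcsk1, the convertase PC1/3 that proSAAS inhibits, rose by 0.64 in Desipramine and by 0.43 in Bupropion. Cpe, the carboxypeptidase that trims cut peptides, rose by 0.63 in Desipramine. Of 13 preoptic genes, Gal included, 9 rose and 0 fell in Probiotics, and 8 rose and 1 fell in Bupropion. Of these 13 preoptic genes 3 rose and 4 fell in Desipramine, and 0 rose and 2 fell in Maltodextrin. Over all genes, 35% were called in Probiotics and 39.3% in Bupropion. The part of the preoptic genes in the changes of Gal, Cartpt and Mc4r was not tested.

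Between replicates of a treatment, Cartpt and Gal moved together in mPOA, and no other pair of the 7 genes passed the test. Each gene's log2(CPM + 0.5) was centred on its treatment mean, and all 21 pairs were compared over the 30 libraries by 100000 permutations within treatments, two-sided. Cartpt and Gal had a Pearson r of 0.790 and a Spearman rho of 0.798 (permutation p = 1e-05 for r, the smallest they can give). The adjusted p over the 21 pairs was 0.00021 for r and 0.00042 for rho by the same permutation test. Without the 2 libraries farthest from the median of Cartpt, r was 0.735, and without the FT libraries it was 0.787. Leaving out each library in turn gave 0.747 to 0.836. Leaving out all libraries with replicate number 3 gave 0.576, which did not pass (permutation adjusted p = 0.211).

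The other 20 pairs did not pass, at permutation adjusted p-values of 0.328 or more. Pomc and Agrp, the neighbours of the arcuate nucleus, had an r of 0.214, and 0.014 without the 2 farthest libraries. Pomc and Npvf had an r of -0.384, and Pomc and Cartpt an r of 0.145. Mc4r had an r of 0.303 with Pomc and -0.366 with Gal. Without the FT libraries (n = 25), Pomc had an r of -0.142 with Agrp, -0.208 with Npvf, 0.324 with Cartpt, 0.472 with Gal and -0.057 with Mc4r, and none of these passed. With FT, the r of Pomc and Gal was 0.046. A pair that did not pass is not shown to be unrelated, and the low counts of Agrp, Npvf and Pcsk1n outside FT limit what these pairs could show.

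**Figure D3:**
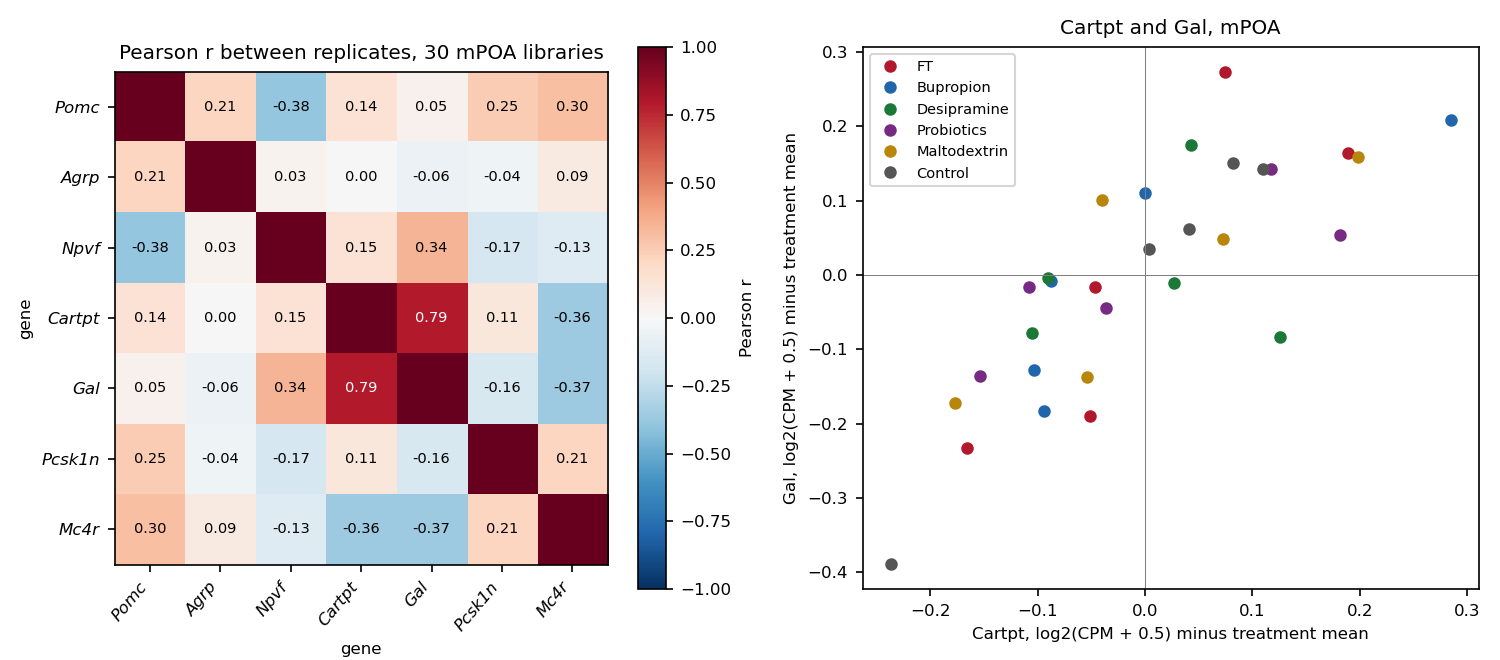
Pearson r of each pair of the 7 genes between replicates over 30 mPOA libraries, with a scatter of Cartpt on the horizontal and Gal on the vertical axis, both as log2(CPM + 0.5) minus the treatment mean. Each point is 1 library. The Cartpt and Gal cell, at 0.79, stands apart from the other pairs, and Control replicate 3 is the lowest point for both genes.

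The genes whose between-replicate values were most like Gal were Ndufb6, Chchd10 and Ndufa6, at an r of 0.834 for Ndufb6 over the 30 mPOA libraries and 12017 genes. Ndufa6 was also most like Cartpt, at 0.825, and Chchd10, at 0.814, and Ndufb6, at 0.800, were near the top for Cartpt too. These values are above the r of 0.790 between Cartpt and Gal, so the relation was not particular to that pair. Most like Pomc was Ppp1ca, a phosphatase subunit, at 0.842. These values share library totals and are given as a description.

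Over the 60 group means of all regions and treatments, Agrp, at 0.856, and Npvf, at 0.850, had the highest r with Pomc among 14712 genes. Prlh, Galp, Ghrh, Bsx, Nr5a1 and Fezf1 followed, at 0.849 to 0.795. Bsx is a homeobox factor of arcuate neurons, and Galp encodes the galanin-like peptide of that nucleus. Pcsk1n was at rank 78 with 0.590, Gal at rank 357 with 0.502, Cartpt at rank 2008 with 0.306 and Mc4r at rank 2436 with 0.276. These values rest largely on the FT mPOA group, which chose the genes: Bsx averaged 1.62 CPM there and at most 0.226 CPM in any other group, and Galp 3.80 CPM there and at most 0.234 CPM elsewhere.

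**Figure D4:**
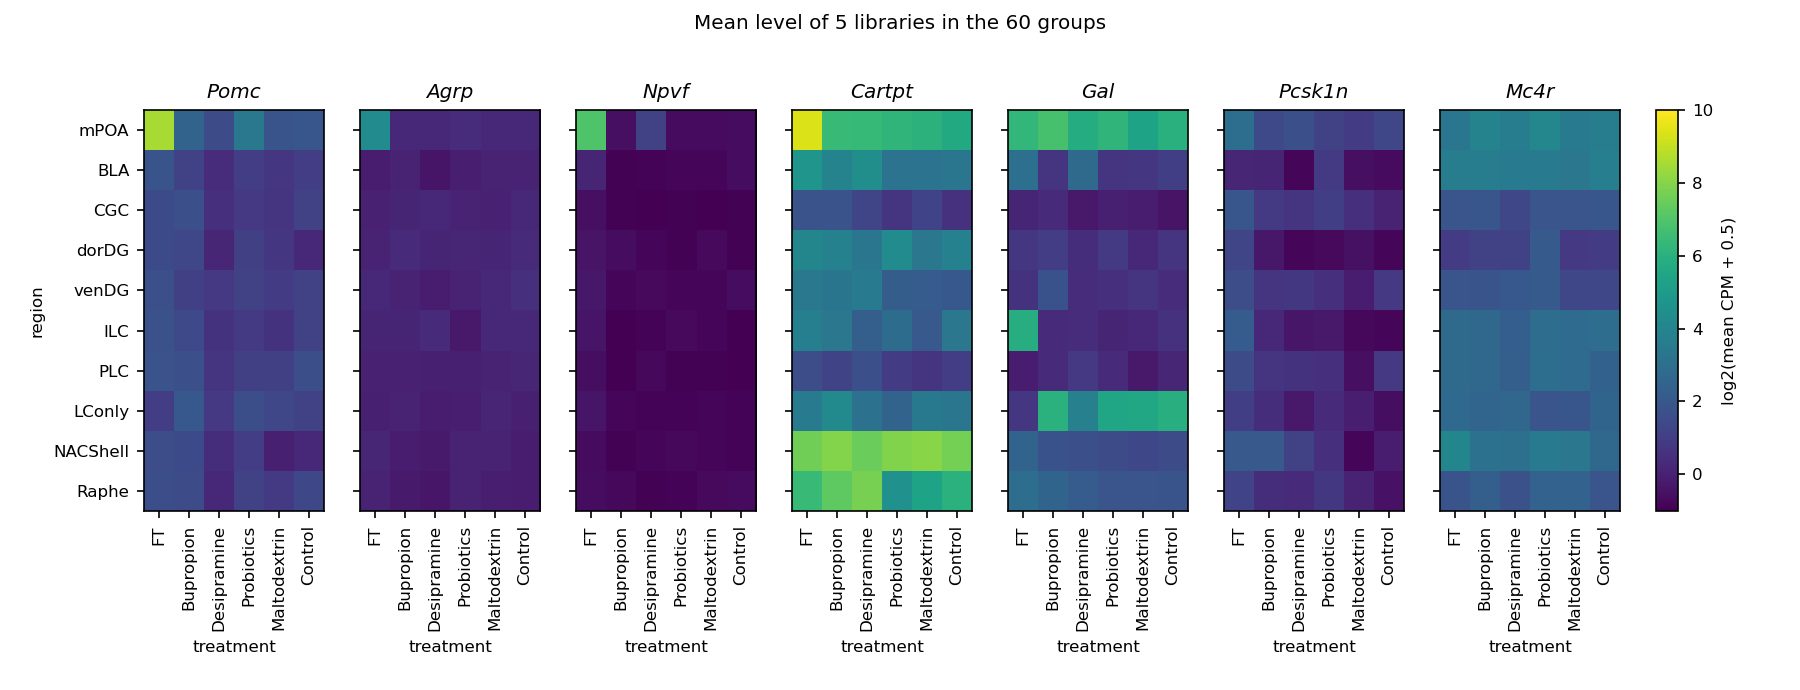
Mean level of the 7 genes in the 60 groups of region and treatment, as log2 of the mean CPM of 5 libraries plus 0.5. FT mPOA is the bright cell for Pomc, Agrp and Npvf, while Cartpt is also bright in NACShell and Raphe, and Gal in LConly and in the FT libraries labelled ILC.

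Across regions in Control, Gal was highest in mPOA, at 62.2 CPM, and in LConly, at 59.6 CPM, whose libraries overlapped, and next in Raphe at 3.15 CPM, apart from both. Cartpt was highest in NACShell, at 211 CPM, then Raphe, at 63.8 CPM, then mPOA, at 50.4 CPM, with no overlap between these neighbours, and dorDG followed at 13.8 CPM. Mc4r was highest in BLA, at 12.4 CPM, and mPOA, at 11.7 CPM, which overlapped, and ILC followed at 7.22 CPM without overlap. For Pomc, Agrp, Npvf and Pcsk1n, neighbours in the order of regions overlapped throughout, and the highest Control means were 3.34, 0.921, 0.153 and 2.07 CPM.

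The high levels of FT mPOA were not matched in the other FT regions. Pomc averaged 1.48 to 3.10 CPM in the 9 other FT regions, which is 0.395 to 0.827% of its FT mPOA mean. Agrp ran from 2.20 to 3.68% of its FT mPOA mean, Npvf from 0.0982 to 0.484% and Cartpt from 0.365 to 28.5%.

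Counts summed over the 9 other regions within each treatment replicate gave 30 sums, which were tested by the same edgeR method. Regions with many reads of a gene weigh most in such sums. LConly held 13731 reads of Gal and the next region, ILC, 2130. NACShell held 50467 and Raphe 32862 reads of Cartpt, and the next region, dorDG, 3606. In FT against Control 3 of 7 genes were called, where 61.8% of 15293 genes were. Pcsk1n was higher in FT, at a log2 fold change of 2.16 ± 0.19 (edgeR adjusted p = 3.34e-11). Pomc was at 0.42 ± 0.13 (edgeR adjusted p = 0.00515). Npvf, on 82 reads in FT and 30 in Control, was at 1.82 ± 0.37. It passed the filter only through FT, so that the count without it is 2, and without a filter it was at 1.81 (edgeR adjusted p = 0.000155). Without ILC and LConly these 3 calls held, and Gal, at 1.00, and Mc4r, at 0.35, passed as well. In CGC, NACShell, PLC and Raphe alone the Pomc change of FT was 0.34 and did not pass.

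In Bupropion 3 of 7 were called, where 59% of genes were, namely Pomc at 0.49, Cartpt at 0.52 and Pcsk1n at 1.23. In Desipramine 5 of 7 were called, where 69.1% were. Pomc fell by 0.97 and Agrp by 0.62, Cartpt rose by 0.52, Gal fell by 1.58 and Mc4r by 0.21. Without ILC and LConly the Gal change of Desipramine was 0.34 in place of -1.58, and the Mc4r change of -0.04 did not pass, nor did it on library totals. In Probiotics 3 of 7 were called, where 55.9% were, namely Pomc at 0.36, Pcsk1n at 1.37 and Mc4r at 0.21. In Maltodextrin 3 of 7 were called, where 48.1% were, namely Pomc at -0.45, Gal at -0.37 and Pcsk1n at -0.56, and the call of Gal was lost without ILC and LConly or without Maltodextrin replicate 1. The Pcsk1n call of Maltodextrin was lost without any 1 of 7 libraries, which were Maltodextrin replicates 2, 3 and 5 and Control replicates 2, 3, 4 and 5.

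Over the 9 other regions Pomc passed the test in all 5 comparisons, and Pcsk1n in 4 of 5. The Probiotics call of Pomc was lost without Maltodextrin replicate 1, at 0.30, or replicate 2, at 0.32. Levels behind these values were low, at 0.469 to 3.57 CPM for group means of Pomc and 0.0505 to 4.13 CPM for Pcsk1n outside mPOA. The 3 drug comparisons and Maltodextrin share the Control libraries, and Probiotics and Maltodextrin share the Maltodextrin libraries.

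The effect in mPOA minus that over the 9 other regions was tested directly in the 4 comparisons that did not choose the genes. In Probiotics 2 of 7 genes differed, where 21.6% of 13787 genes did: Pomc by 1.23 ± 0.34 (edgeR adjusted p = 0.00601) and Gal by 0.68 ± 0.18 (edgeR adjusted p = 0.00293). In Desipramine 2 of 7 differed, where 36.8% did: Npvf by 3.68 ± 0.74 (edgeR adjusted p = 8.78e-05) and Gal by 1.15 ± 0.18 (edgeR adjusted p = 9.98e-07). Npvf is among these 2 only because its FT counts carried it past the filter. In a fit without the FT libraries and without a filter, Npvf was at 3.67 (edgeR adjusted p = 0.000176). The Gal value turned to -0.77 without ILC and LConly (edgeR adjusted p = 0.00102). In Bupropion 1 of 7 differed, where 33% did, and in Maltodextrin 1 of 7, where 20.2% did. These were Gal in Bupropion, by 0.68, and Cartpt in Maltodextrin, by 0.45, and neither passed without ILC and LConly, at 0.34 and 0.41. Pcsk1n differed as well in Bupropion without the FT libraries and without a filter, by -1.16, without Bupropion replicate 5, by -1.31, or without Control replicate 3, by -1.28, and in Probiotics without Probiotics replicate 5, by -2.21. The Maltodextrin call of Cartpt was also lost without any 1 of 6 libraries, which were Maltodextrin replicates 1, 2, 3 and 4 and Control replicates 3 and 4.

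Outside mPOA, Cartpt in Raphe, Gal in LConly and Mc4r in NACShell were followed further, and were chosen after their values were seen. The raphe nuclei hold serotonin neurons. In Raphe, Cartpt averaged 86.4 ± 14 CPM in FT, 153 ± 13 CPM in Bupropion and 215 ± 9.5 CPM in Desipramine, against 63.8 ± 5.9 CPM in Control. Probiotics averaged 22.9 ± 3.5 CPM and Maltodextrin 41.3 ± 1.6 CPM. None of these groups overlapped with its own reference, and Desipramine was the highest group and Probiotics the lowest.

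The log2 fold changes of Cartpt in Raphe were 1.48 ± 0.09 for Desipramine, where 59.9% of genes were called, and 1.09 ± 0.09 for Bupropion, where 43.6% were. They were -0.98 ± 0.10 for Probiotics, where 41.2% were called, and -0.68 ± 0.09 for Maltodextrin, where 33.3% were. The edgeR adjusted p-values were 5.37e-15, 2.72e-11, 2.74e-09 and 1.36e-06 in that order. FT was at 0.07 ± 0.09 (edgeR adjusted p = 0.53), where 61.2% of genes were called, and at 0.43 without TMM scaling (edgeR adjusted p = 5.28e-05). Ucn, a urocortin precursor of neurons in the Edinger-Westphal nucleus near the raphe that also make CART, averaged 5.15 CPM in Desipramine, 6.18 in Bupropion and 2.48 in FT, against 3.52 CPM in Control. Ucn averaged 1.45 CPM in Probiotics and 1.74 CPM in Maltodextrin. Tph2, which makes serotonin, averaged 760 CPM in Desipramine, 463 in Bupropion and 718 in FT, against 751 CPM in Control, and 453 CPM in Probiotics against 464 CPM in Maltodextrin. The part of these genes' cells in the Cartpt values was not tested.

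Gal in the libraries labelled LConly averaged 13.5 ± 1.3 CPM in Desipramine and 63.9 ± 5.2 CPM in Bupropion, against 59.6 ± 12 CPM in Control. Desipramine lay wholly below Control, at a log2 fold change of -2.40 ± 0.12 (edgeR adjusted p = 1.39e-16), where 54.4% of genes were called. Bupropion was at 0.11 (edgeR adjusted p = 0.402), where 58.8% were called. Probiotics averaged 43.5 ± 5.0 CPM and Maltodextrin 47.2 ± 8.2 CPM, at -0.05 (edgeR adjusted p = 0.759), where 41.9% of genes were called. Maltodextrin against Control was at -0.47 ± 0.11 (edgeR adjusted p = 0.000824), where 45.7% were called.

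Noradrenaline neuron markers of LConly were lower beside Gal in Desipramine. Dbh averaged 62.5 CPM in Desipramine and 140 CPM in Control, Slc6a2, the noradrenaline transporter that desipramine blocks, 26 CPM in Desipramine and 68.6 CPM in Control, and Th 35.6 CPM in Desipramine and 67.5 CPM in Control. In Maltodextrin, where Gal was lower, Dbh averaged 232 CPM and Th 135 CPM, both above the Control means. In Bupropion, Dbh averaged 211 CPM and Th 152 CPM. The part of these markers in the Gal values was not tested. FT libraries labelled LConly had 0.739 to 1.63 CPM of Gal, at -6.02 against Control, where 74% of genes were called. FT libraries labelled ILC had 48.5 to 70.6 CPM, against a mean of 1.00 CPM in Control ILC. Both values stand beside the Dbh values of these libraries, which go against their labels.

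Mc4r in NACShell had 14.8, 13.3, 16.8, 16.9 and 18.1 CPM in FT, against 4.91, 5.0, 6.78, 7.94 and 5.61 CPM in Control. All FT libraries were above all Control libraries, at a log2 fold change of 1.27 ± 0.13 (edgeR adjusted p = 2.3e-10), where 46.7% of genes were called. The other means were 8.22 CPM in Bupropion, 7.91 in Desipramine, 11.3 in Probiotics and 9.65 in Maltodextrin, against 6.05 CPM in Control. The Desipramine mean includes replicate 1, at 3.5 CPM on 2 reads in a library of 571357 counts. The other Desipramine libraries had 7.19 to 10.5 CPM. Beside Mc4r, Oxt averaged 213 CPM in FT NACShell and 2.37 CPM in Control NACShell. Drd1, a dopamine receptor of the striatum, averaged 197 CPM in FT and 238 CPM in Control. Their part in the Mc4r difference was not tested.

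**Figure D5:**
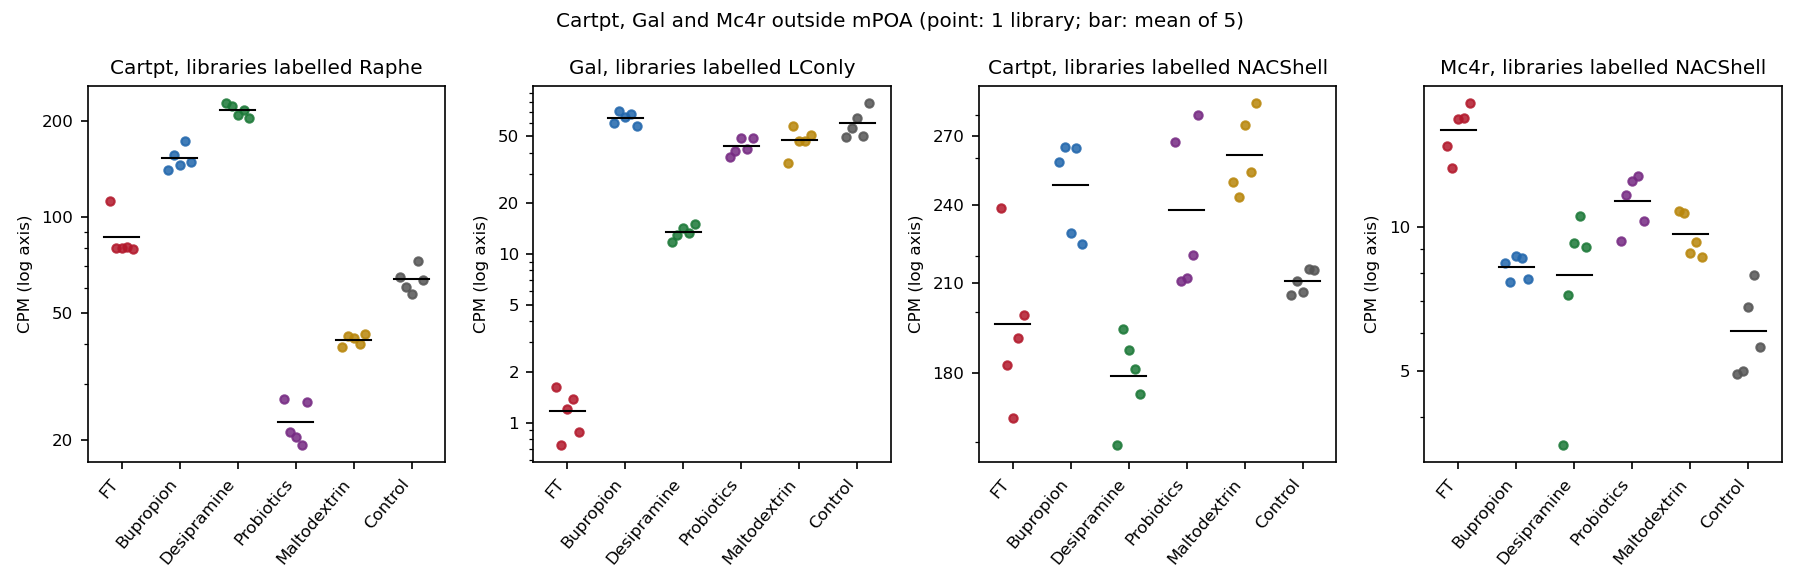
Level of Cartpt in Raphe, Gal in libraries labelled LConly, and Cartpt and Mc4r in NACShell, in CPM on log axes, by treatment. Each point is 1 library and the bar is the mean of 5. Cartpt in Raphe is highest in Desipramine and lowest in Probiotics, Gal is near 1 CPM in the FT libraries labelled LConly, Cartpt in NACShell averages 179 to 262 CPM, and Mc4r in NACShell is highest in FT.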

How the data were processed

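The labels describe stranded total RNA libraries, sequenced in paired ends, from punches of frozen brain sections. The deposited table holds counts per gene symbol in 300 libraries. Reads were handled by the authors with FastQC, STAR and HTSeq on build rn6, per the submitters' processing notes, with versions and annotation not given in the sources used here.

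CPM are counts divided by the library total. Tests were made with edgeR 4.0.16 (TMM scaling, filterByExpr, quasi-likelihood F test, Benjamini-Hochberg adjustment, threshold 0.05) in R 4.3.3, with all 6 treatments of a region in 1 fit. For the 9 other regions, counts were summed per treatment replicate with offsets for each gene, and the difference of effects was tested in 1 model. The alternatives used DESeq2 1.42.0, limma 3.58.1, other references, other filters, the replicate number as a block, and leaving out libraries or regions. Permutation tests used scipy 1.17.1 and numpy 2.4.6 in Python 3.11.15, and figures matplotlib 3.10.9. The edgeR steps were checked on simulated counts for Bupropion against Control, with changes set only in genes of high mean count. In mPOA, 28.4% of 1.2-fold, 85.1% of 1.5-fold and 97.0% of 2-fold changes were recovered. Genes of few reads, such as Agrp, Npvf and Pcsk1n, were not covered by that check.

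The 7 genes and all gene lists were chosen with earlier results of these data known. Beside the 7 genes, the text names the 8 genes most like Pomc over group means, those most like a gene between replicates, and up to 4 genes of a list by smallest p, or in FT mPOA by largest change. Other genes were named after their values were seen. No pair of replicates in mPOA agreed within sampling noise.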

Additional observations from a re-analysis of the deposited data

Results flagged for a closer look

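In 9 of 66 groups of 5 libraries, 1 library stood apart from the other 4, where chance gives about 1 in 20. FT replicate 1 of mPOA did so for 3 of the genes, with Pomc at 175.7 CPM where the others had 404 to 437, Agrp at 11.29 CPM where the others had 19.7 to 22.3, and Npvf at 175.2 CPM where the others had 113 to 119. The fitted Pomc difference of FT was 6.67 with this library and 6.85 without it.

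In mPOA, Bupropion replicate 3 stood apart for Cartpt, at 105.2 CPM beside 80.3 to 86.3, and for Mc4r, at 12.32 CPM beside 14.9 to 15.7. Desipramine replicate 5 had 61.89 CPM of Gal beside 51.7 to 54.6, and Control replicate 3 had 46.94 CPM of Gal beside 63.1 to 68.5. Probiotics replicate 5 had 5.52 CPM of Pcsk1n beside 0.459 to 0.970, on 34 reads. In Raphe, FT replicate 1 had 112.1 CPM of Cartpt beside 79.3 to 80.5.

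The log2 effect in mPOA differed from that over the 9 other regions, by edgeR's test of the difference, in 6 cases. In Probiotics it was higher in mPOA by 1.225 for Pomc and by 0.6806 for Gal. In Desipramine it was higher by 3.68 for Npvf, which entered the mPOA fit only through its FT counts, and by 1.15 for Gal. It was higher by 0.6763 for Gal in Bupropion and by 0.4507 for Cartpt in Maltodextrin. The values for Gal in Desipramine, Gal in Bupropion and Cartpt in Maltodextrin did not hold without ILC and LConly, as given above.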

How the results depend on the processing

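Over 496 alternative values of the tested changes in mPOA, 473 kept their side of the threshold with no change of sign in a called value, as did 671 of 733 over the 9 other regions and 456 of 473 for the difference between them. Among these, 22, 24 and 17 values that did not pass changed sign. With Maltodextrin in place of Control, Gal in Desipramine was 0.27 in mPOA, and 1 gene was called there. FT mPOA differences moved with the reference: Cartpt was 3.48 with Control and Maltodextrin pooled, 3.34 with Maltodextrin and 3.77 on library totals without TMM, Gal was 0.50 pooled and 0.84 with Maltodextrin, and Npvf was 9.86 with Maltodextrin and 9.22 to 10.27 with single libraries left out. Over the other regions, Gal in Desipramine was 0.34 without ILC and LConly and 0.15 in CGC, NACShell, PLC and Raphe alone. Gal in FT was 1.00 and 0.81 under the same settings and 0.37 as a mean over regions in limma, and Mc4r in Maltodextrin was 0.42 in those 4 regions. The difference of effects for Gal in Desipramine was -0.77 without ILC and LConly.

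Genes called over the other regions were 5 in Bupropion under 6 settings (pooled reference, Maltodextrin reference, fitting the groups compared alone, without ILC and LConly, those 4 regions, limma), 5 in FT without ILC and LConly and in limma, 1 in Maltodextrin without TMM, and 1 in Probiotics in those 4 regions. For the difference of effects, Bupropion had 0 without ILC and LConly, 4 with the groups compared alone, 2 without the FT libraries and without a filter, and 1 to 2 with single libraries left out, and Maltodextrin had 0 without ILC and LConly and 0 to 1 with single libraries left out. Maltodextrin in mPOA had 1 to 2 genes called, and 0 to 1 pairs passed, with single libraries or replicate numbers left out. The cause of these changes was not tested. Library totals without TMM, the fits without the FT libraries and without a filter, the alternatives for the difference of effects and those for single regions were chosen after seeing the data.

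Replicate numbers are shared across treatments, but same-numbered libraries did not deviate together, at correlations of -0.207 to 0.141 per comparison. With the replicate block, Pomc in Bupropion was 0.72 in mPOA and passed (edgeR adjusted p = 0.0272). With the replicate block, 2 genes were called for the difference of effects in Bupropion, Pcsk1n in addition to Gal. Counts of 0 to 4 per library for Npvf in Control limit the precision of its changes.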

Other observations

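Tanycyte and ependymal genes were also followed in mPOA. Rax, a factor of tanycytes lining the floor of the third ventricle, averaged 0.943 CPM in FT and was at 0 in Control and in all other treatments. Of the 10 tanycyte and ependymal genes of at least 1 CPM, 4 had all FT libraries above all Control libraries and 0 had all below, where 21.4% of all genes were above and 8.5% below.

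Gal in BLA ranged from 5.70 to 10.8 CPM in FT against 1.08 to 2.58 CPM in Control. In Desipramine 4 libraries had 3.67 to 4.75 CPM, and replicate 3 had 15.1 CPM on 3 reads, in a library of 198260 counts. Every FT library lay above every Control library, as did the 4 deeper Desipramine libraries. In BLA the edgeR test called 54.7% of all genes in FT against Control and 43.9% in Desipramine against Control. The share of genes without overlap was not counted there. Cartpt in BLA was apart as well, at 21.1 to 35.6 CPM in FT and 8.13 to 12.4 CPM in Control. The Gal and Cartpt values of BLA were singled out after they were seen and are given without a test.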
